A study of Mus musculus with 15 samples.

Results

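A set of 10 genes that mark the naive state of mouse pluripotent cells is described here: Zfp42, Tcl1, Dppa2, Dppa3, Dppa4, Dppa5a, Tdh, Trh, Fbxo15 and Gdf3. They were taken by name, through their Ensembl mouse identifiers, from a count table of 52636 rows. All 10 had a row, and all 10 were among the 13451 genes that passed the filter on low counts. The samples are 15 RNA-seq libraries of epiblast-like cells (EpiLCs), a culture model of the epiblast shortly after implantation. The cells belong to the mouse line CRAFR26, which carries a c-RAF kinase construct that switches on ERK signalling when 4-hydroxytamoxifen (4OHT) is added. Embryonic stem cells were first taken through the RSC state for 2 passages and then held for 48 h in N2B27 medium with 12 ng/ml bFGF, 20 ng/ml Activin A and 1 µM of the tankyrase inhibitor XAV939. Every group, the 0h controls included, was given 250 nM of the FGF receptor inhibitor PD17 (PD173074) for 2 h beforehand. The 0h group (3 libraries) had no 4OHT, while the 2h and 4h groups (4 libraries each) had 250 nM 4OHT for 2 h or 4 h. The rev group (4 libraries) had 4OHT for 4 h and then a MEK inhibitor for 2 h, so the inhibitor and the 2 further hours of culture cannot be told apart. Each group came from 2 clones of the one line, clone 4 and clone 8, with 2 libraries per clone except at 0h, where clone 4 has 1. Nothing in the labels says that the libraries of a clone came from separate cultures, so p-values measure the spread between these libraries, which may in part be technical.

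Mouse pluripotent cells pass from a naive state, like that of the epiblast before implantation, through a formative state, which EpiLCs model, towards a primed state. The naive state is held by a network of transcription factors, and the genes described here are markers that this network switches on. FGF signalling through MEK and ERK is known for pushing cells out of the naive state, and MEK inhibitors are used to hold cells in it. Zfp42 (also called Rex1) encodes a zinc finger protein and is the most widely used reporter of the naive state, and Fbxo15 encodes the substrate-binding subunit of a ubiquitin ligase. Tcl1 encodes a coactivator of the kinase AKT. Dppa2 and Dppa4 encode a pair of SAP-domain proteins that act together on chromatin, while Dppa3 (Stella) encodes a protein that limits DNA methylation in oocytes and early embryos. Dppa5a encodes an RNA-binding protein with a KH domain, and Tdh encodes threonine dehydrogenase, a mitochondrial enzyme of threonine catabolism. Gdf3 and Trh encode secreted products, a ligand of the TGF-beta superfamily and the precursor of thyrotropin-releasing hormone.

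Sequence before the annotated start was at hand for 3 of the 10 genes, in RefSeq's promoter table for GRCm38.p6, the assembly that mm10 names. They are the only members in that table. Zfp42 and Tcl1 rose between 2h and 4h, while Trh rose both by 2h and between 2h and 4h. Each is written 5′ to 3′ on the gene's strand (minus for all 3) and ends at the base before the start. Tcl1 is given only up to the start in GENCODE M21, which left out 56 of 250 bases. Capitals mark matches to any of 8 motifs searched on both strands: octamer ATGCAAAT, SOX ATTGTT, ESRRB AAGGTCA, KLF GGGTGTG, ETS CCGGAAG, E-box CACGTG, STAT TTCCNGGAA and TATA box TATAAA.
Zfp42, chr8:43307010-43307259: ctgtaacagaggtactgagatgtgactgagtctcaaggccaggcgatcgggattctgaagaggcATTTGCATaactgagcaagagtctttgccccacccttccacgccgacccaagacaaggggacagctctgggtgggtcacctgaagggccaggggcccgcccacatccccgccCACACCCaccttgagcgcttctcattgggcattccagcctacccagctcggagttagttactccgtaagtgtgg
Tcl1, chr12:105222794-105222987: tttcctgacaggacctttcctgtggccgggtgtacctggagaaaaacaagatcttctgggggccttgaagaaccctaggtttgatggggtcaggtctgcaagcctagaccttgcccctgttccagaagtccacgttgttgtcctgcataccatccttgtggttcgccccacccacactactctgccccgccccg
Trh, chr6:92244651-92244900: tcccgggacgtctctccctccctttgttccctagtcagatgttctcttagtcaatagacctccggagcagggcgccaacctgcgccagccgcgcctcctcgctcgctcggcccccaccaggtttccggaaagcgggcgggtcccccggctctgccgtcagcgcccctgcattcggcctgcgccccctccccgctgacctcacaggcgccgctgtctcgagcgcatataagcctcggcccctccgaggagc
The Zfp42 window held 1 octamer match, with its first printed base at -186 from the start, and 1 KLF match at -74, both on the other strand. The 2 matches do not overlap. An octamer match was found in 1.6% of the 32851 windows of 250 bases in the table, and a KLF match in 6.93%. The letters of the 8 motifs are not in the Tcl1 and Trh windows. Each motif was found in 0.673% to 8.9% of windows as long as that of Tcl1 and in 0.913% to 12.4% of those as long as that of Trh.

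The 4h libraries stood apart from the rest. Their total counts were 1552022 to 6658950, against 8667880 to 13004556 in the other 11 libraries. Mitochondrially encoded genes took 7.21% to 12.4% of their counts, against 2.67% to 6.98% elsewhere. At 3 counts, the floor used here for detection, the level was 0.683 to 1.83 CPM at 4h and at most 0.423 CPM elsewhere; the floor covers counting error only. CPM is the gene's count scaled to a common library size, here after normalisation by the trimmed mean of M-values (TMM). Scaling by total counts instead moved the median tested gene by -0.73 in 4h vs 0h, -0.57 in 4h vs 2h and 0.45 in rev vs 4h (log2). All 13 formative and primed markers checked had counts in every group, with a summed level of 1517 to 1750 CPM at 0h. Dnmt3b alone held 863 to 1061 CPM there. The 16 other naive genes checked summed to 145 to 154 CPM at 0h. In such bulk samples, fewer cells of a type and less RNA per cell cannot be told apart.

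Under TMM scaling most of the 10 genes were near their starting level after 2 h of 4OHT, higher after 4 h and back down in the rev group. In 4h vs 2h, 8 of 10 rose, by 0.40 to 3.82 on the log2 scale, with Dppa5a and Tdh not passing the test (edgeR's quasi-likelihood test, Benjamini-Hochberg adjusted p under 0.05; with the package's default setting Tdh passed too, at 0.70 and adjusted p 0.032, which makes 9); of the 8, Dppa4 changed sign (-0.14) under total count scaling. Among all tested genes, 19.7% rose and 19.2% fell in that comparison. Then 8 of 10 fell in rev vs 4h, by 0.52 to 4.37 on the log2 scale, against 15.6% of all tested genes that fell and 15.1% that rose. The median log2 change of the 10 was 1.21 in 4h vs 2h and -1.15 in rev vs 4h, where the median of all tested genes was -0.01 and 0.02. Total count scaling called 5 higher (Zfp42, Tcl1, Dppa2, Dppa3 and Fbxo15) and 1 lower (Dppa5a) in 4h vs 2h, and those same 5 lower in rev vs 4h. The same change moved the share of higher genes among all called genes from 50.6% to 9.09% in 4h vs 2h and from 49.2% to 88% in rev vs 4h. The 2 comparisons share the 4h libraries. Tcl1, with the largest change in both, passed the filter on low counts through 3 of its 4h libraries alone. Its calls in any comparison with 4h depend on that. The next largest change in both was that of Fbxo15 (2.56 and -2.43).

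**Figure D1:**
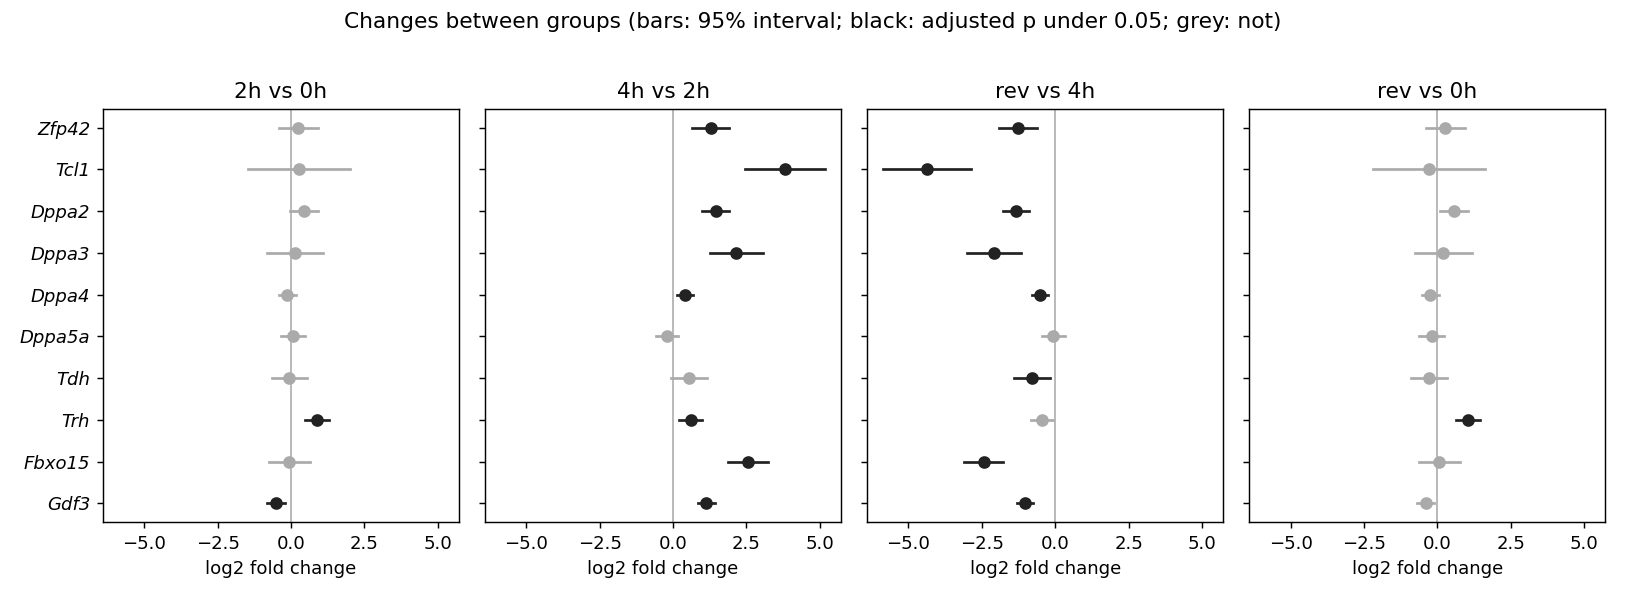
Log2 fold change of each gene in 4 comparisons (x axis, TMM scaling), with the 95% interval of edgeR's quasi-likelihood fit as bars; black marks an adjusted p under 0.05 and grey a larger one. Only Trh and Gdf3 are black in 2h vs 0h. In rev vs 0h only Trh is, though the intervals of Dppa2 and Gdf3 also leave out 0. In 4h vs 2h, 8 of 10 are above 0 and black. Among them are Dppa4, whose sign flips under total count scaling, and Tcl1, tested only through its 4h libraries.

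The start and end points were compared with 0h. In 4h vs 0h, 7 of 10 genes rose, against 20.5% of all tested genes; Dppa4 (log2 0.29, adjusted p 0.101), Dppa5a (-0.13, 0.638) and Tdh (0.50, 0.205) did not pass, and of the 7 Gdf3 changed sign under total count scaling (-0.13). That scaling called 6 higher and 1 lower (Dppa5a). Of all 13451 tested genes it called 6697 in 4h vs 0h, and 7.11% of those were higher. Tcl1 is among the 7 and the 6, and it was tested only through its 4h libraries. After 2 h, only Trh (log2 0.90 higher, adjusted p 0.00751) and Gdf3 (0.51 lower, adjusted p 0.036) passed the test, 2 of 10 where 6.45% of all genes did. In rev vs 0h, 1 of 10 passed, Trh at 1.05 (adjusted p 0.00149), where 11.2% of all genes passed in either direction. Neither count is far from that background, and under total count scaling 0 of 10 passed in either comparison. The 95% interval of the change in rev vs 0h ran from -2.18 to 1.62 for Tcl1 and from -0.51 to 0.04 for Dppa4, so these data do not show a return to the exact starting level. For Dppa2 (0.09 to 1.06) and Gdf3 (-0.70 to -0.10) the interval of the single gene left out 0, though neither passed after adjustment (adjusted p 0.117 and 0.0803).

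**Figure D2:**
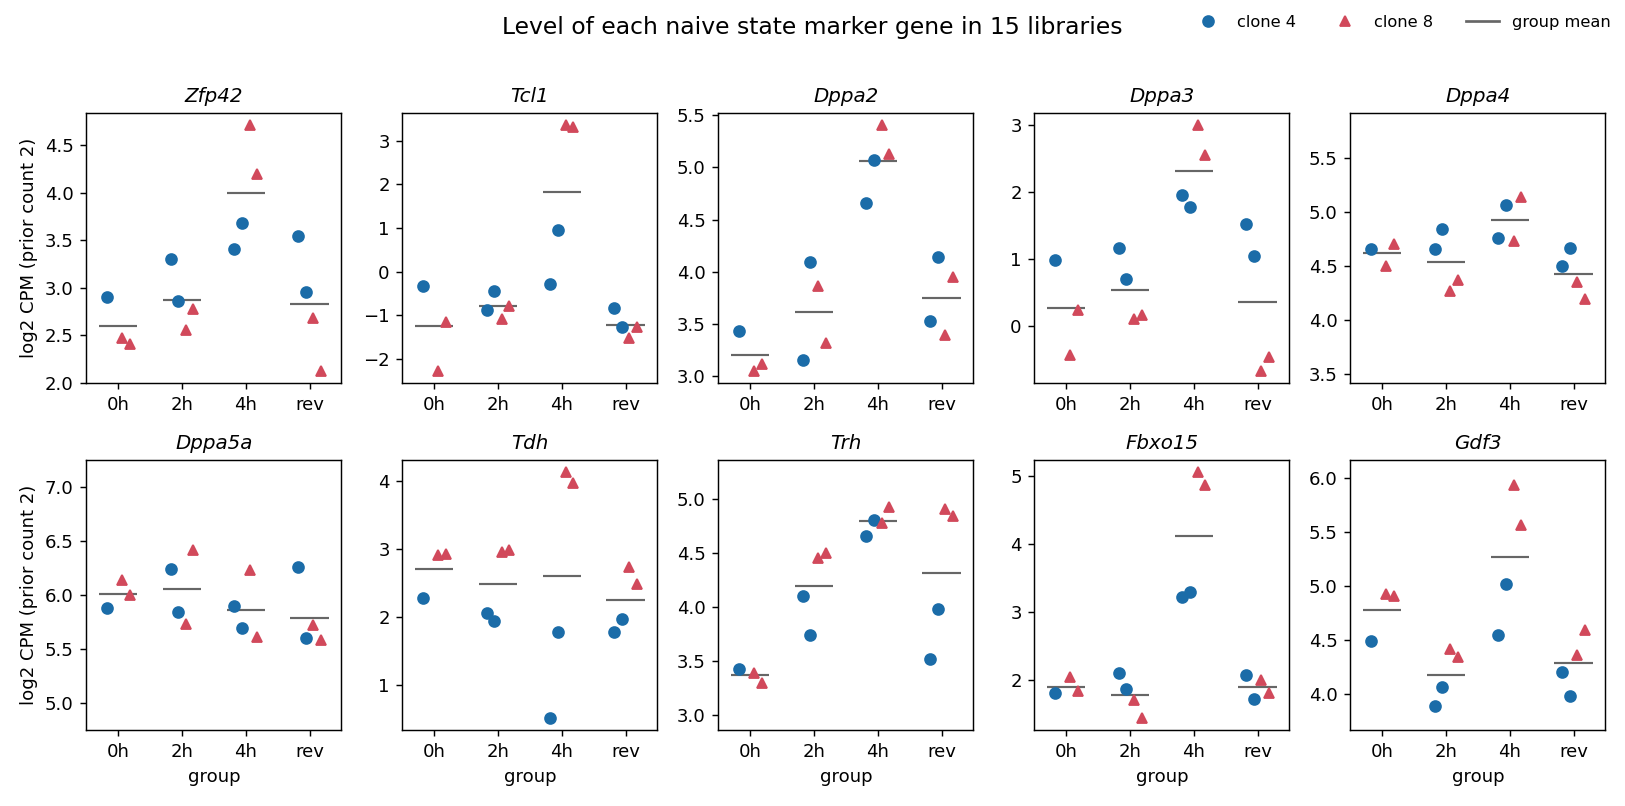
Level of each gene in every library, as log2 CPM with a prior count of 2 (y axis, each panel with its own range of at least 2.5 units), by group (x axis); circles are clone 4, triangles clone 8 and bars the group means. In all but Dppa4, Dppa5a and Trh, both clone 8 libraries at 4h stand above both clone 4 libraries.

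Zfp42 (ENSMUSG00000051176, mm10 chr8:43295063-43306980, minus strand) rose at 4h and fell at rev. It stood at 7.29 CPM in clone 4 and 5.35 and 5.09 CPM in clone 8 at 0h. At 2h it was 9.65 and 7.07 CPM in clone 4 and 5.67 and 6.64 CPM in clone 8. At 4h it reached 10.4 and 12.6 CPM in clone 4 and 26.0 and 18.1 CPM in clone 8, above every 2h library. In the rev group it was 11.5 and 7.54 CPM in clone 4 and 6.2 and 4.15 CPM in clone 8. The highest rev library, of clone 4, lay between the clone 4 libraries at 4h, so those groups overlapped. The change was 1.28 (SE 0.29, adjusted p 0.00263) in 4h vs 2h and -1.26 (SE 0.30, adjusted p 0.00415) in rev vs 4h. The second call was lost when only the rev and 4h libraries were fitted (adjusted p 0.0679). Within clone 4 neither change passed edgeR's quasi-likelihood test (0.48, adjusted p 0.201, and -0.28, adjusted p 0.506).

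Fbxo15 (chr18:84934782-84981473, plus strand) was flat outside the 4h group. Its 11 libraries at 0h, 2h and rev lay between 2.52 and 4.09 CPM. At 4h it was 9.16 and 9.63 CPM in clone 4 and 33.0 and 29.0 CPM in clone 8, so no 4h library overlapped any other. It rose by 2.56 (SE 0.32, adjusted p 5.93e-06) in 4h vs 2h and fell by 2.43 (SE 0.32, adjusted p 1.42e-05) in rev vs 4h. Its mean at rev, 3.55 ± 0.42 CPM (SD, n = 4), lay 0.07 above that at 0h on the log2 scale, with a 95% interval of -0.62 to 0.77.

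Tcl1 (chr12:105216750-105222793, minus strand) changed the most and was counted the least. It passed the filter on low counts through 3 of its 4h libraries alone, so it was tested only because it was high there. It had 11 counts in clone 4 and 0 and 2 in clone 8 at 0h. At 2h it had 3 and 6 counts in clone 4 and 3 and 7 in clone 8, and in the rev group 5 and 2, and 1 and 2. At 4h clone 4 had 1 and 7 counts, which is 0.611 and 1.73 CPM, the first under that library's floor of 1.83 CPM. Clone 8 had 44 and 26 counts there, or 10.02 and 9.8 CPM. Within clone 4 the change in 4h vs 2h was 1.58 (adjusted p 0.128), and within clone 8 it was 4.87 (adjusted p 2.19e-06). In clone 8 the 4h mean of 9.91 CPM was at least 35.1-fold higher than the floor over its 0h libraries and 31.1-fold higher than its 2h mean of 0.318 CPM. Over both clones the change was 3.82 (SE 0.65, adjusted p 0.000164) in 4h vs 2h and -4.37 (SE 0.71, adjusted p 0.000148) in rev vs 4h. Its paralogs Tcl1b1 to Tcl1b5, 5 genes of the same cluster, had 0 counts in all 15 libraries.

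Dppa2 and Dppa4 start 20.2 kb apart on chromosome 16, in the same direction, but differed in the size of their changes. Dppa2 (chr16:48303908-48319723) stood at 8.09 to 10.6 CPM at 0h, 8.74 to 16.9 CPM at 2h and 10.3 to 17.4 CPM in the rev group. At 4h it was 25.0 and 33.3 CPM in clone 4 and 42.1 and 34.7 CPM in clone 8, above all 11 other libraries. It rose by 1.45 (SE 0.21, adjusted p 3.68e-05) in 4h vs 2h and fell by 1.33 (SE 0.21, adjusted p 0.000131) in rev vs 4h. Dppa4 (chr16:48283733-48294237) went from 19.1 to 28.5 CPM at 2h to 26.4 to 35.1 CPM at 4h and 18.1 to 25.2 CPM in the rev group. Its libraries at 2h and 4h overlapped. Its change in 4h vs 2h was 0.40 (SE 0.13, adjusted p 0.0142), a call lost without the first clone 8 library at 2h (adjusted p 0.0507) or the second at 4h (0.0812), and it turned to -0.14 under total count scaling. In rev vs 4h it fell by 0.52 (SE 0.13, adjusted p 0.00335), a call also lost under total count scaling (adjusted p 0.798).

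The ratio of 2 genes within a library does not depend on the scaling, and it was tested after the values had been seen. The log2 ratio of Dppa2 to Dppa4 counts was -0.93 ± 0.47 (SD, n = 4) at 2h, 0.14 ± 0.36 at 4h and -0.68 ± 0.36 in the rev group. It was higher at 4h than at 2h by 1.07 and lower at rev than at 4h by 0.82, with no overlap of libraries in either comparison. Each gave p = 0.0286 in a two-sided exact permutation test, the smallest that 4 against 4 libraries allow, and an adjusted p of 0.0477 over 20 such tests. Measured against Dppa5a in the same way, 5 of 9 genes (Zfp42, Tcl1, Dppa2, Dppa3 and Fbxo15) were higher at 4h than at 2h and lower at rev than at 4h in all libraries, each at p = 0.0286 (exact permutation test) and adjusted p 0.0477. For Tcl1 this rested on 1 count in the first clone 4 library at 4h, under that library's floor. Its log2 ratio there was -6.02, against -6.63 in the highest 2h library. Tcl1 also passed the filter on low counts through its 4h libraries alone. Of all other tested genes, 10.6% were higher against Dppa5a in every 4h library than in any 2h library. In every rev library, 4.64% were lower than in any 4h library. The other 4, Dppa4, Tdh, Trh and Gdf3, overlapped in both comparisons, with exact permutation p of 0.0571 to 0.714. A ratio shows unequal change and does not say which of the 2 genes moved.

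Dppa3 (chr6:122626410-122630272, plus strand) was a low gene that moved far. At 0h it was 1.78 CPM in clone 4 and 0.535 and 0.969 CPM in clone 8. At 2h it was 2.04 and 1.41 CPM in clone 4 and 0.872 and 0.911 CPM in clone 8. It reached 3.67 and 3.21 CPM (6 and 13 counts) in clone 4 and 7.74 and 5.65 CPM (34 and 15 counts) in clone 8 at 4h, above all other libraries. In the rev group it was 2.66 and 1.86 CPM in clone 4 and 0.423 and 0.519 CPM (3 and 5 counts) in clone 8. The clones thus stood in opposite order at 4h and in the other 3 groups. The change was 2.16 (SE 0.43, adjusted p 0.00052) in 4h vs 2h and -2.09 (SE 0.44, adjusted p 0.00118) in rev vs 4h. The second call was lost with all libraries thinned to the smallest (edgeR's quasi-likelihood test, adjusted p 0.201). Within clone 4 neither change passed that test (0.97, adjusted p 0.0893, and -0.56, adjusted p 0.365).

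Dppa5a (chr9:78367052-78368177, minus strand) passed the test in none of the 5 comparisons. Its levels were 58.6 to 70.2 CPM at 0h, 52.8 to 85.1 CPM at 2h, 48.6 to 74.9 CPM at 4h and 47.5 to 76.0 CPM in the rev group, and all groups overlapped. In 4h vs 2h its change was -0.20 with a 95% interval of -0.59 to 0.18. The smallest of the 8 rises, 0.40 for Dppa4, had an interval of 0.14 to 0.66, which overlapped that of Dppa5a. Without a filter on low counts Dppa5a was called lower in 4h vs 2h (-0.32, adjusted p 0.0304), as it was under total count scaling (-0.76, adjusted p 0.0148). Its pseudogenes Dppa5b and Dppa5c had 0 counts in all libraries and Dppa3-ps had 1 count in total. How reads that match several copies were counted is not given in the sources used here.

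Tdh (chr14:63492347-63509092, minus strand) had changes of opposite sign in the 2 clones, of which those in clone 8 passed the test. At 0h it was 4.64 CPM in clone 4 and 7.35 and 7.39 CPM in clone 8, and at 2h 3.97 and 3.63 CPM in clone 4 and 7.59 and 7.71 CPM in clone 8. At 4h it was 1.22 and 3.21 CPM in clone 4, from 2 and 13 counts, and 17.3 and 15.5 CPM in clone 8. In the rev group it was 3.22 and 3.72 CPM in clone 4 and 6.49 and 5.4 CPM in clone 8. Clone 8 stood above clone 4 in all 4 groups, and the gap was widest at 4h. Clone 8 alone gave a rise of 1.10 (SE 0.24, adjusted p 0.0023) in 4h vs 2h and a fall of 1.47 (SE 0.25, adjusted p 0.000272) in rev vs 4h. Within clone 4 the changes were -0.60 (adjusted p 0.157) and 0.47 (adjusted p 0.32). Over both clones it fell by 0.80 (adjusted p 0.0481) in rev vs 4h, a call that was lost without either clone 8 library at 4h, the first clone 4 or either clone 8 library at rev (adjusted p 0.0695 to 0.233). Of its 2615 exon bases, 66 overlap Gm17232 on the other strand, and the other 9 genes share no exon base with another gene. Without the first clone 4 library at 4h, the one with 2 counts, Tdh passed in 4h vs 2h (0.80, adjusted p 0.0115) and in 4h vs 0h (0.73, adjusted p 0.0238).

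Of the secreted products, Gdf3 (chr6:122605403-122610087, minus strand) dipped at 2h before it rose. It was 22.2 CPM in clone 4 and 30.1 and 29.8 CPM in clone 8 at 0h, and 14.6 and 16.5 CPM in clone 4 and 21.1 and 20.0 CPM in clone 8 at 2h. No 2h library reached a 0h library. That fall of 0.51 (SE 0.14) was lost without any single 0h library or either clone 8 library at 2h (adjusted p 0.0597 to 0.219). At 4h it was 23.2 and 32.1 CPM in clone 4 and 61.0 and 47.1 CPM in clone 8, and in the rev group 15.6 to 23.9 CPM. It rose by 1.14 (SE 0.14, adjusted p 1.49e-06) in 4h vs 2h and fell by 1.03 (SE 0.14, adjusted p 8.15e-06) in rev vs 4h; neither passed under total count scaling (adjusted p 0.0755 and 0.109).

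Trh (chr6:92242061-92244650, minus strand) was the one gene of the 10 that rose by 2h. At 0h it was 10.5 CPM in clone 4 and 10.2 and 9.57 CPM in clone 8. At 2h it was 16.9 and 13.2 CPM in clone 4 and 21.6 and 22.3 CPM in clone 8, all above 0h, a call lost without the second clone 8 library at 0h (log2 0.76, adjusted p 0.0601). At 4h the clones met, at 25.0 and 27.6 CPM in clone 4 and 27.1 and 30.2 CPM in clone 8. In the rev group they parted: clone 4 was at 11.2 and 15.6 CPM and clone 8 at 29.7 and 28.3 CPM. It rose by 0.60 (SE 0.18, adjusted p 0.0129) in 4h vs 2h, a call lost without the second clone 4 library at 2h (adjusted p 0.0534) or at 4h (0.0716) and under total count scaling (0.05, adjusted p 0.903). Its change in rev vs 4h over both clones was -0.45 (adjusted p 0.0683), and it passed without the first clone 8 library at 4h or either clone 8 library at rev (adjusted p 0.03 to 0.0449).

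At 4h, both clone 8 libraries lay above both clone 4 libraries for 7 of the 10 genes, against 27.7% of all tested genes, and below them for 0, against 23.1%, while 3 overlapped (Dppa4, Dppa5a and Trh). At 0h, with 1 clone 4 library, 4 were above and 5 below, against 40.0% and 38.6% of all genes. The counts at 2h were 3 and 4 (22.1% and 20.6% of all genes) and those at rev 3 and 3 (24.2% and 24.9%). In 4h vs 2h, 4 of 10 genes rose within clone 4 (Dppa2, Trh, Fbxo15 and Gdf3), against 13.5% of all genes, and 8 within clone 8 (all but Dppa5a and Trh), against 13.9%. Those same 4 fell in rev vs 4h in clone 4, against 8.39% of all genes, and those same 8 in clone 8, against 11.9%. Tcl1 is among these 8 and among the 7 above at 4h. It was tested only through its 4h libraries, so its place in these counts depends on that. The median change of the 10 was 0.83 in clone 4 and 1.53 in clone 8 in 4h vs 2h, and -0.64 and -1.53 in rev vs 4h. Averaged over the groups, clone 8 was higher than clone 4 in Tdh (1.2, adjusted p 0.000486), Gdf3 (0.55, adjusted p 0.00052) and Trh (0.47, adjusted p 0.0167), 3 of 10 where 18.5% of all genes differed. Only Tdh passed there under total count scaling, and Trh did not without the second clone 4 library at rev (adjusted p 0.0549).

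The difference between the clones in their changes was tested directly. In 4h vs 2h it passed for 2 of 10 genes, against 3.14% of all genes: Fbxo15 rose by 2.16 more in clone 8 (SE 0.34, adjusted p 0.000769) and Tdh by 1.70 more (SE 0.39, adjusted p 0.0183). Zfp42 (1.36, adjusted p 0.0514; 0.0421 without the second clone 4 library at 2h), Tcl1 (3.28, adjusted p 0.0675) and Dppa3 (1.93, adjusted p 0.0683) did not pass. It passed in rev vs 4h for 5 of 10, against 2.80% of all genes. Clone 8 fell by more in Dppa3 (-3.23, adjusted p 0.00383), Tdh (-1.94, adjusted p 0.00812), Zfp42 (-1.82, adjusted p 0.00929) and Fbxo15 (-1.72, adjusted p 0.0061). Trh was the exception, with a fall in clone 4 (-0.98, adjusted p 0.000912) and 0.02 in clone 8, a difference of 1.00 (adjusted p 0.0337). Under total count scaling 0 genes passed in 4h vs 2h and 1, Dppa3, in rev vs 4h; with all libraries thinned to the smallest, the counts were 0 and 1 (Tdh). Single libraries decided several of these calls. The call for Tdh in 4h vs 2h was lost without the first clone 4 library at 2h or at 4h or the first clone 8 library at 4h (adjusted p 0.0571 to 0.0708). The call for Zfp42 in rev vs 4h was lost without the first clone 8 library at 4h, the first clone 4 or the second clone 8 library at rev (0.0794 to 0.0833). That for Fbxo15 was lost without the first clone 4 library at rev (0.0547), that for Tdh without the second clone 8 library at rev (0.0544), and that for Trh without any of 6 of the 8 libraries (0.0662 to 0.186), all but the first clone 4 library at 4h and the second at rev.

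The summed level of a marker list also differed with the clone, at 2h and rev as well as at 4h. The 10 ERK output genes checked summed to 715 and 754 CPM in clone 4 and 369 and 385 CPM in clone 8 at 4h, with 0 of them at 0 counts. At 2h they summed to 1258 and 1476 CPM in clone 4 and 771 and 823 CPM in clone 8. At rev the sums were 317 and 322 CPM in clone 4 and 253 and 261 CPM in clone 8. At 0h the order was the other way, with 131 CPM in clone 4 and 167 and 175 CPM in clone 8. Egr1, the highest of them, held 352 to 910 CPM at 2h, 31.2 to 220 CPM at 4h and 44.2 to 99.4 CPM at rev. The sums thus lean in part on 1 gene. Averaged over the groups, 2 of the 10 passed as higher and 2 as lower in clone 8, where 18.5% of all genes differed. The part of these ERK output genes in the difference between the clones was not tested. Total counts at 4h did not separate the clones: they were 1552022 and 6658950 in clone 4 and 6209289 and 3492073 in clone 8.

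**Figure D3:**
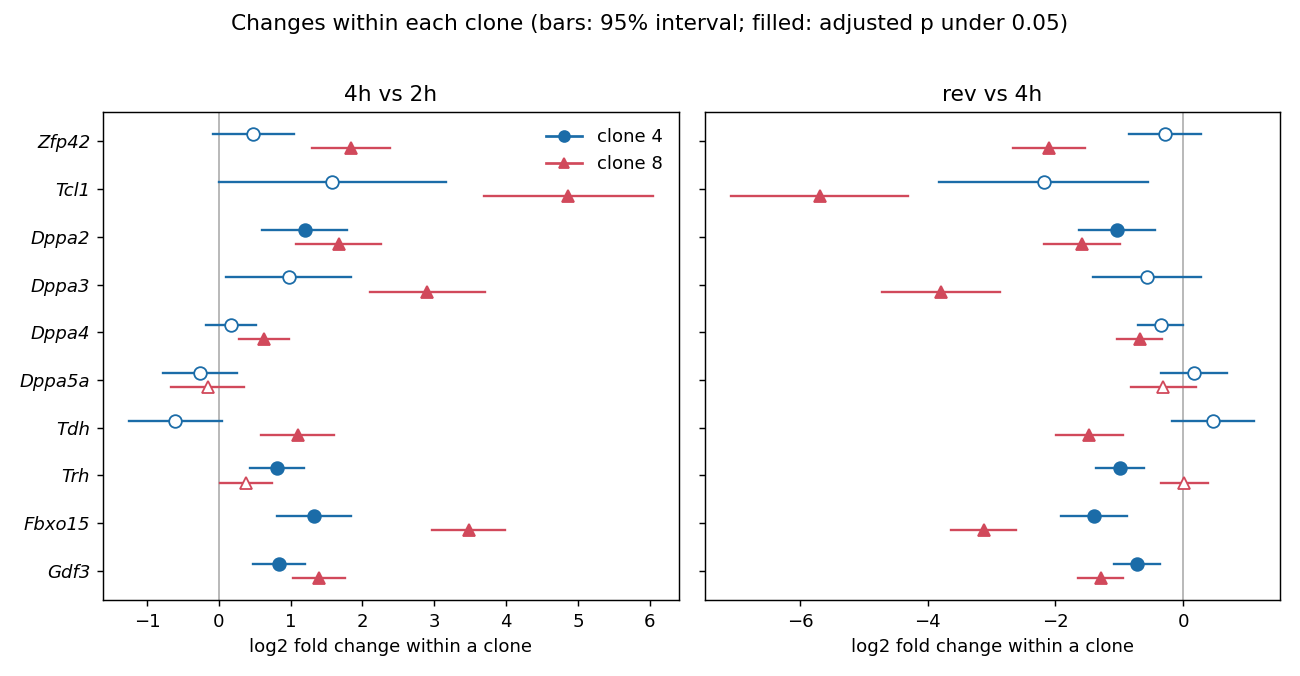
Log2 fold change of each gene within clone 4 (circles) and clone 8 (triangles), for 4h vs 2h and rev vs 4h (x axis, TMM scaling), with 95% intervals as bars and filled symbols for an adjusted p under 0.05. Clone 8 lies farther from 0 than clone 4 for Zfp42, Tcl1, Dppa3 and Fbxo15 in both panels, and Trh is the reverse. Tcl1 was tested only through its 4h libraries. Dppa4 over both clones changes sign in 4h vs 2h under total count scaling.

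Whether the 10 genes moved together was also described by how closely their courses matched over the 15 libraries. The measure was the root mean square (RMS) difference of log2 CPM after each gene was centred on its own mean, over all 13451 tested genes. The course nearest to Tcl1 was that of Sohlh2 (RMS 0.57), followed by Prdm14 (0.63) and Dnah8 (0.67), and Fbxo15 ranked 5 (0.71). Those nearest to Zfp42 were Gpx4 (0.26), Aes (0.31) and Ooep (0.32). For Dppa3 they were Slfn9 (0.35), Dnah8 (0.41) and Capn3 (0.42), and Zfp42 ranked 8 (0.49). For Fbxo15 they were Mov10 (0.27), Kirrel (0.31) and Ephx2 (0.31). For Dppa2 they were 3 zinc finger genes, Zfp979 (0.20), Zfp936 (0.22) and Zfp600 (0.25), and for Gdf3 Zfp518b (0.18), Auts2 (0.20) and Utrn (0.21). For Tdh they were Pgpep1 (0.32), Trps1 (0.33) and Pnpla3 (0.34), and Trh was near to Cdkn1c (0.29) and Klf3 (0.32). Dppa4 and Dppa5a, which varied little, were nearest to Dazap1 (0.11), Cnot3 (0.13) and Gtf2h1 (0.13), and to Gna12 (0.15), Rxrb (0.17) and Vps16 (0.17). No member was among the 3 nearest of another member, which does not say whether they moved together. For Fbxo15 the other members ranked from 136 (Zfp42), 169 (Dppa2) and 218 (Dppa3) to 6282 (Dppa5a) among the tested genes. For Dppa5a they ranked from 5061 (Dppa4) to 13406 (Tcl1). The measure favours genes with small changes, and all points share the libraries and their depth.

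The 10 genes also differed in how strongly they were expressed. Per kilobase of exon, Dppa5a stood far above the rest at 0h, at 104 ± 9.43 CPM per kb (SD, n = 3). Dppa4 (14.7 ± 1.06), Gdf3 (11.3 ± 1.84) and Trh (7.3 ± 0.35) followed, with no overlap between neighbours in that order. Dppa2 (3.71 ± 0.56), Zfp42 (3.14 ± 0.64), Tdh (2.47 ± 0.60), Dppa3 (1.23 ± 0.71) and Fbxo15 (1.05 ± 0.10) overlapped each with the next, and Tcl1 was lowest (0.15 ± 0.16). At 4h, Dppa5a was still highest (94.6 ± 19.1 CPM per kb, n = 4), and each of the 9 others overlapped with the next, from Trh (19.9 ± 1.52) down to Tcl1 (3 ± 2.75). At rev the order was that at 0h except that Trh (15.3 ± 6.66), which overlapped Dppa4, stood above Dppa4 (12.9 ± 1.84) and Gdf3 (8.05 ± 1.44).

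Several of the genes lie near others that rose. Of 36 other tested genes that start within 250 kb of a member, 14 rose and 5 fell in 4h vs 2h. Among all tested genes, 19.7% rose and 19.2% fell. These counts are under TMM scaling. Next to Dppa2 and Dppa4, Morc1, a germ-line gene that is also among the other naive genes below, rose by 2.60 (adjusted p 1.33e-09), more than either. Gdf3 and Dppa3 start 16.3 kb apart in opposite directions. In the same region Nanog, a core factor of the naive network, rose by 2.04 (adjusted p 0.00269) and Slc2a3, a glucose transporter gene, by 2.34 (adjusted p 1.88e-12). Apobec1, which starts 7.64 kb from Gdf3 and encodes an RNA-editing enzyme, was at 0.13 (adjusted p 0.781). Near Zfp42, Triml1 rose by 1.97 (adjusted p 8.85e-07) and Triml2 by 1.65 (adjusted p 9.82e-06), and near Dppa5a, which did not pass, Ooep rose by 1.63 (adjusted p 0.000114). None of the 3 tested genes near Trh passed. Near Tcl1, Tunar rose (1.61) and Glrx5 fell (-0.53), and near Fbxo15, Timm21 fell (-0.52). Distances are between gene starts in GENCODE M21.

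**Figure D4:**
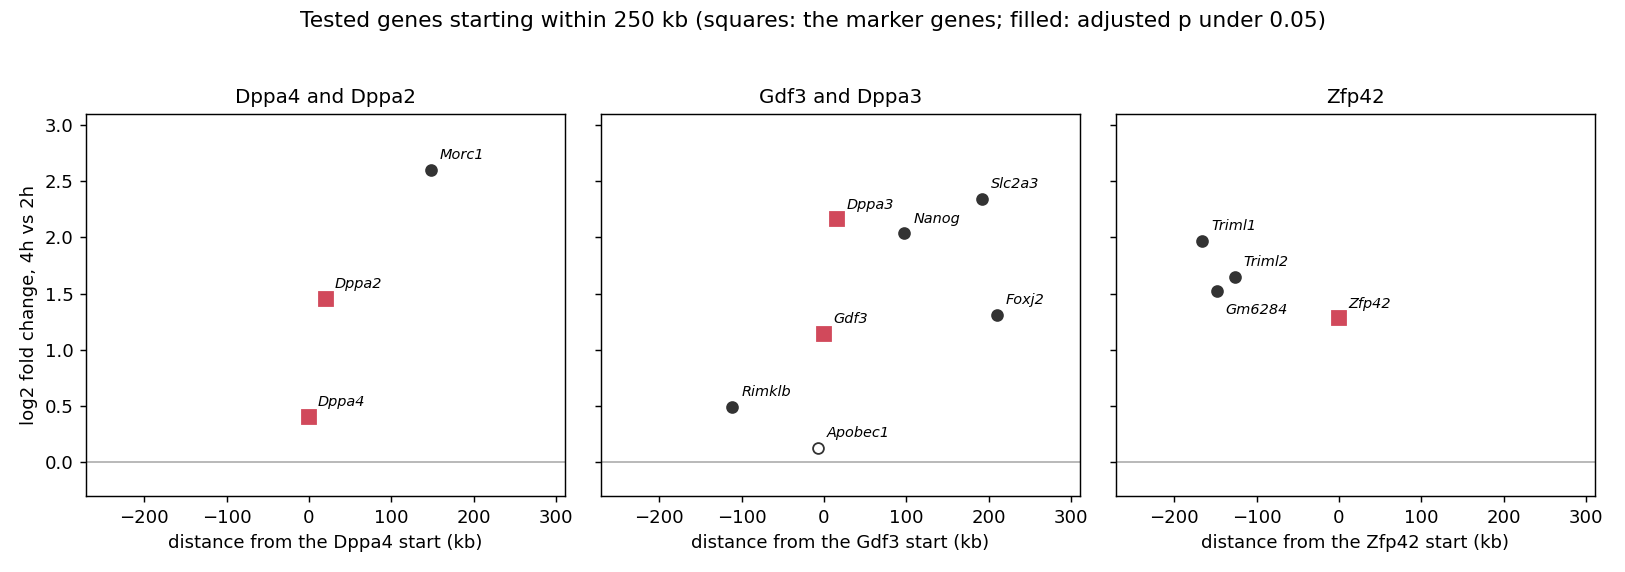
Log2 fold change in 4h vs 2h (y axis, TMM scaling) of tested genes by the distance of their start from a marker gene's start, in kb (x axis), around 3 of the marker loci; squares are marker genes, circles other genes, and filled symbols have an adjusted p under 0.05. Apobec1 is the one open symbol in these 3 regions, and Dppa4, filled here, changes sign under total count scaling.

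Other gene groups were counted in the same fit. Of 16 other naive genes, all tested, 14 rose in 4h vs 2h and 15 fell in rev vs 4h, with a median of 2.24 and -2.02. Of the 16, 2 were under 1 CPM in every library at 0h and at 2h, 1 at rev and 0 at 4h. Prdm14 is in both counts, and it passed the filter on low counts only because it was high at 4h. Klf4 (-0.28, adjusted p 0.533) and Fgf4 (-0.39, adjusted p 0.241) did not pass in 4h vs 2h, and Klf4 (0.11, adjusted p 0.842) in rev vs 4h. Esrrb, an orphan nuclear receptor of the naive network, rose by 4.18 (adjusted p 0.000134) and fell by 4.10 (adjusted p 0.000223). Nr5a2, another nuclear receptor, rose by 4.13 (adjusted p 4.41e-09) and fell by 2.80 (adjusted p 4.73e-07). Prdm14, a transcriptional regulator of naive and germ cells, had at most 2 counts in any 2h library and at most 1 in any rev library, so its 4h mean of 2.92 CPM was at least 11.3-fold and 9.3-fold higher than the group floors. These 16 genes summed to 293 and 314 CPM in clone 4 and 630 and 631 CPM in clone 8 at 4h. Under total count scaling 13 rose and 1 fell in 4h vs 2h, and 11 fell in rev vs 4h. Against 0h, 6 of the 16 passed at rev, 5 higher and 1 lower.

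Genes of other states were checked for the same course. A list of 17 genes of the two-cell-like state, a rare state of embryonic stem cell cultures that Dppa2 and Dppa4 are known to promote, held 8 tested genes. Of the 17, 15 were under 1 CPM in every library at 0h and at 2h, all 17 at rev and 5 at 4h. The filter on low counts thus favoured genes high at 4h, and no count of calls is drawn from them. The list includes 6 copies of Zscan4, whose reads may be split among near-identical genes. The whole list summed to 2.92 to 6.3 CPM at 0h, 3.89 to 5.93 CPM at 2h, 19.5 to 33.6 CPM at 4h and 3.22 to 6.12 CPM at rev. Zscan4d, its highest gene, was at 4.46 ± 1.13 CPM at 4h (SD, n = 4) and 0.617 ± 0.24 CPM at rev. Of 10 general pluripotency genes, 7 rose and 2 fell in 4h vs 2h, which turned to 1 and 3 under total count scaling. Of 13 formative and primed genes 6 rose and 6 fell (2 and 6 under total count scaling). The summed level of the latter was 979 to 1123 CPM at 4h, below the 1441 to 1635 CPM at 2h. Dnmt3b, the highest of them, was at 416 ± 17.9 CPM at 4h and 814 ± 62.4 CPM at 2h, so that sum leans on 1 gene. The median log2 change of the 13 was 0.24. The filter may also favour genes high in 1 group in the lists that follow, of which not all genes were tested. Of 12 tested germ-line genes of 15 listed, 5 rose and 1 fell (3 and 5 under total count scaling), in a summed range of 57.2 to 69.5 CPM at 2h and 89 to 98 CPM at 4h. Ddx4, the highest of them, stood at 12.9 ± 3.34 CPM at 4h and 15.6 ± 1.78 CPM at 2h.

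Markers of other cell types gave mixed counts. Total count scaling changed them to 0 up and 4 down in primitive endoderm, 2 and 2 in trophoblast, and 0 and 2 in mesendoderm. Of 11 primitive endoderm markers, 7 were tested, and 1 rose and 3 fell in 4h vs 2h; their sum was 26.9 to 43.8 CPM at 2h and 18.9 to 20.3 CPM at 4h, led by Col4a1 (15.7 to 31.8 CPM and 7.16 to 12.1 CPM). Of 8 trophoblast markers, 5 were tested, and 2 rose and 1 fell. Their sum at 4h was 43.2 and 43.4 CPM in clone 4 and 6.15 and 8.29 CPM in clone 8, with Krt18 highest (12.1 ± 11.8 CPM) and Elf5 at 0 counts. Of 8 mesendoderm markers, 5 were tested, and 1 rose and 2 fell, led by Eomes (6.12 ± 2.23 CPM at 4h). Their sum was 5.41 to 9.42 CPM at 2h and 6.37 to 13.1 CPM at 4h. The part of any of these in the levels of the 10 genes was not tested.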

How the data were processed

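The deposited table holds whole-number counts of reads per gene, not normalized. Per the submitters' processing notes, mm10, STAR 2.5.3a and bcl2fastq 2.19.1 were used; the counting tool, annotation and strand handling are not given in the sources used here. Per the labels' protocols, rRNA was removed from 1 µg of total RNA and NEBNext libraries were made. Per the series' design text, 1 library at 0h failed quality control, and it is not analysed here. Samples were grouped by their labels.

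Tests used edgeR 4.0.16 (R 4.3.3). Low genes were dropped with filterByExpr by group (a minimum count of 10 and a total of at least 15), scaling was by TMM, and 1 robust quasi-likelihood model with group and clone covered 15 libraries. Clone differences came from a model with a term per group and clone. P-values (two-sided F tests) were adjusted by Benjamini-Hochberg over all 13451 genes, with calls at 0.05. The fit used legacy=FALSE. That setting and the package default had both been run and seen before the choice, and it was taken because it matches earlier processing of these data. The default called 9 members in place of 8 in 4h vs 2h (Tdh added) and 2 in place of 1 in rev vs 0h (Gdf3 added). Within-library ratios used a pseudocount of 0.5. Symbols came from a name table (233 identifiers had none), positions from GENCODE M21. The code was tested on simulated data. Libraries of 1 clone and group differed beyond counting error (chi-square per degree of freedom 6.21 to 202).

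The members and gene lists were chosen with earlier results of these data known. Named besides the members are the 3 other naive genes with the largest changes called in both 4h vs 2h and rev vs 4h, the highest gene of each list of other cell types, the 3 nearest courses of each member and genes within 250 kb. For Trh, 1 of the 3 nearest is not reported here. Among neighbours, those printed were picked after their values were seen, as were Klf4, Fgf4, Elf5 and the pseudogenes. Alternatives were other scalings and filters, DESeq2 1.42.0, other designs, thinned counts and leaving out each library. The ratios, the values within a clone, the package default and the lists under total count scaling were added after seeing the data. Leave-one-out, thinned and two-group fits kept the same 13451 genes, also chosen after seeing the data.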

Additional observations from a re-analysis of the deposited data

Results flagged for a closer look

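In 7 cases the change differed between the clones by a direct test (edgeR's quasi-likelihood test of the group-by-clone term, adjusted p under 0.05). In 4h vs 2h the difference, clone 8 minus clone 4, was 1.70 for Tdh and 2.16 for Fbxo15 on the log2 scale. In rev vs 4h it was -1.82 for Zfp42, -3.23 for Dppa3, -1.94 for Tdh, 1.00 for Trh and -1.72 for Fbxo15. Among all tested genes, 3.14% passed in 4h vs 2h and 2.80% in rev vs 4h. Under total count scaling 0 of the 10 genes passed in 4h vs 2h and 1, Dppa3, in rev vs 4h. Fewer also passed with thinned counts, and single libraries decided several of these calls, as given above.

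Within a group of 4 libraries, 1 of 30 checks of a gene's CPM found a library far from the other 3 (Dixon's criterion at 95%). It was Dppa5a in the rev group, where the first clone 4 library held 76.0 CPM and the other 3 held 47.5 to 52.3 CPM. Chance flags about 1 group in 20.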

How the results depend on the processing

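Of the values of single genes under alternatives other than leaving out a library, 89 of 100 kept direction and side of the threshold in 4h vs 2h and 87 of 100 in rev vs 4h; with 1 library left out, 75 of 80 and 69 of 80 did. Uncalled values that changed sign, such as Tdh in 4h vs 2h under total count scaling (-0.05), are not among these. Total count scaling moved the most. It gave 0 calls in 2h vs 0h, 5 in rev vs 4h, 0 in rev vs 0h, 1 between clones, 0 clone differences in 4h vs 2h and 1 in rev vs 4h, and it reversed Gdf3 in 4h vs 0h (-0.13) and Dppa4 in 4h vs 2h (-0.14). Relative to that scaling's median gene they were at 0.59 and 0.44. In rev vs 0h, where 1 gene was called, there were 2 without the 20 most abundant genes, 2 with DESeq2, 2 with the legacy quasi-likelihood setting, 3 without a filter and 3 when only the groups compared were fitted. The legacy setting, the package default, called 9 in 4h vs 2h, Tdh being added. Clone differences in 4h vs 2h numbered 4 without a filter, 1 with DESeq2 and 0 with counts thinned to the smallest library, where rev vs 4h had 5 calls and 1 clone difference. Without the clone term 0 genes were called in 2h vs 0h. The cause was not tested. Leaving out 1 library gave 0 to 2 calls in 2h vs 0h, 7 to 9 in 4h vs 2h, 7 to 8 in rev vs 4h, 1 to 3 clone differences in 4h vs 2h and 2 to 5 in rev vs 4h. Depth limits Tcl1 and Dppa3 most, the former with 1 count in the smallest 4h library.

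Replicate numbers did not pair the libraries: the correlation of same-numbered deviations was 0.05 to 0.26 over 3 pairs in clone 4 and -0.19 to 0.04 over 6 in clone 8. With the replicate block, 1 gene (Trh) was called in 2h vs 0h, 8 in 4h vs 2h and 7 in rev vs 4h, where Tdh was lost (adjusted p 0.0793).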
